A study of Mus musculus with 6 samples.

Results

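Transforming growth factor beta (TGF-beta) signalling was examined in mouse immature dendritic cells (imDCs) through 10 genes: the ligand Tgfb1, the receptors Tgfbr1 and Tgfbr2, the signal carriers Smad1, Smad2, Smad3 and Smad4, the inhibitory SMADs Smad6 and Smad7, and the SMAD corepressor Skil. They were picked by symbol, with earlier results of these data in view, out of 22899 genes in the deposited table, and all 10 were found there. Smad3 in particular was chosen for its response, so the differences of the 10 genes between the groups are a description and carry no p-value.

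Cells in both groups were imDCs grown from femur and tibia marrow. The mice were male C57BL/6 animals, 7 weeks old. Culture ran for 7 days with recombinant mouse IL-4 at 10 ng/ml and GM-CSF at 20 ng/ml, after which suspension cells were purified by CD11c. In the fluid shear stress (FSS) group, 3 libraries, a cone turning above the dish dragged the medium over the cells at 10 dyn/cm2 for 3 h. The static group, also 3 libraries, was cultured without shear. The question posed by the design is how FSS at a venous magnitude alters imDC messenger RNA. Libraries carry the numbers 1 to 3 in each group; nothing in the labels says that they come from separate cultures or animals, so p-values measure only the spread between these libraries, which may be technical.

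As background, TGF-beta binds the type II receptor TGFBR2, which recruits and phosphorylates the type I receptor TGFBR1. TGFBR1 then phosphorylates SMAD2 and SMAD3, which join SMAD4 and enter the nucleus, where SMAD3 and SMAD4 contact DNA directly. SMAD1 serves the bone morphogenetic protein (BMP) receptors in the same way, SMAD6 and SMAD7 block the receptors, and SKIL (SnoN) holds SMAD targets silent. In dendritic cells TGF-beta is known for restraining maturation and for a part in Langerhans cell development.

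Levels are given in FPKM, fragments per kilobase of transcript scaled to the mapped fragments of the library, so that genes can be compared per length. Between 10390 and 10959 genes reached 1 FPKM in a library. The libraries numbered 3 stood apart from the rest in both groups. Their deviations from the group means correlated with those of numbers 1 and 2 of the other group at -0.78 to -0.54 across genes. Numbers 1 and 2 correlated with each other across the groups at 0.22 and 0.28. Deviations within a group cancel by construction, so the negative values follow in part from the positive ones and are no separate evidence. Libraries of one number correlated at 0.66 to 0.87. The numbers were therefore also read as pairs. The cell label can be checked in the RNA. The 7 dendritic cell markers summed to 5815 to 7149 FPKM under FSS and 6425 to 7199 FPKM in static cells. Most of that sum was Cd74 (4178 to 5319 FPKM over all libraries) and H2-Ab1 (951 to 1197 FPKM), so it says little about the other markers. Itgax (CD11c) stood at 397 to 502 FPKM under FSS and at 502 to 599 FPKM in static cells. Of the 5 markers fitted, 3 (Itgax, Zbtb46 and Ccr7) fell with the replicate number as a block (limma). In that fit 25.1% of all genes fell, and none of the markers passed without the block. Zbtb46 averaged 60.5 FPKM under FSS and 82.5 FPKM in static cells, and Ccr7 168 FPKM under FSS and 261 FPKM in static cells. Flt3 and Cd209a, also on the list, were near absent, at most 0.67 and 0.39 FPKM in any library.

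Upstream sequence of the 3 members whose FSS libraries all lay above all static ones is shown first. RefSeq (GRCm38.p6) gave start-site windows, 250 bases before to 50 after, for 6 of the members, 7 windows in all. All 3 shown lie on the minus strand of chromosome 9, at chr9:63757945-63758244 for Smad3, chr9:116175314-116175613 for Tgfbr2 and chr9:64022010-64022309 for Smad6. Capitals mark matches to any of the motifs searched, and none of these matches overlap.
Smad3: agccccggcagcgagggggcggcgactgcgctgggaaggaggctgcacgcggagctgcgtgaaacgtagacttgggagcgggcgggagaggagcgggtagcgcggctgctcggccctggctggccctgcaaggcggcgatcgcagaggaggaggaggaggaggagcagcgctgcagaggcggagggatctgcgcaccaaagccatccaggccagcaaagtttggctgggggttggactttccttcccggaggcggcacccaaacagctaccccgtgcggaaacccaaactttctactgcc
Tgfbr2: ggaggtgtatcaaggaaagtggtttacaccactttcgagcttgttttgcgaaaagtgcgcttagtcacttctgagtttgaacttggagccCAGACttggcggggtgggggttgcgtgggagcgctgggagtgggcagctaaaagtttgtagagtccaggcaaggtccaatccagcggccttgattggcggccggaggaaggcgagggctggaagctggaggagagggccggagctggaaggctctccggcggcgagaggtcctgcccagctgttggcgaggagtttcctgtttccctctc
Smad6: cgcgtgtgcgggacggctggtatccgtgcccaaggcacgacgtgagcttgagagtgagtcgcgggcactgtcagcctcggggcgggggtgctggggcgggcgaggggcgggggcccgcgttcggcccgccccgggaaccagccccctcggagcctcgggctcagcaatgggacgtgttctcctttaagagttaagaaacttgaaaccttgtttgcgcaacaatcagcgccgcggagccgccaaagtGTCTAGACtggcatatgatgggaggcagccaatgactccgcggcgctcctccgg

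The motifs were the short SMAD box CAGAC, the SMAD palindrome GTCTAGAC, the heat shock arrangements TTCNNGAA and GAANNTTC, and the AP-1 site TGANTCA, each on both strands. GTCTAGAC occurred in the Smad6 window, beginning 4 bases before the annotated start, and in 0.213% of all 32851 windows. CAGAC occurred in the Tgfbr2 window, 160 bases before the start, but also in 49.6% of all windows. TTCNNGAA, found in 8.52% of all windows, occurred in the Smad1 window and in 1 of the Tgfbr1 windows. That same Tgfbr1 window also held CAGAC, and the other Tgfbr1 window held none of the motifs. GAANNTTC (7.86% of all windows) and TGANTCA (7.81%) matched no member window. Smad2, Smad4, Smad7 and Skil had no window and were not searched. The Smad3 window held none of the searched letters. It was rich in G and C (67.7%, against a median of 52.7% over all windows) and had 25 CpG dinucleotides (median 7). The other member windows ran from 52.0% to 77.0% G and C and from 3 to 34 CpG, so neither value sets Smad3 apart. These matches describe the letters of the windows and not binding.

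Smad3 stood out among the members. Its level was 8.76, 6.12 and 6.32 FPKM in FSS replicates 1 to 3, against 0.79, 1.32 and 0.69 FPKM in static replicates 1 to 3. Every FSS library lay above every static one, and the lowest FSS value was far above the highest static value. The means were 7.07 ± 1.47 FPKM under FSS and 0.933 ± 0.339 FPKM in static cells (SD, n = 3 each), a 7.57-fold ratio, and the ratios within pairs 1 to 3 were 11.1, 4.64 and 9.16. On the log2(FPKM + 1) scale, which understates the change of low genes, the difference was 2.06 ± 0.20 (SE), the 13th largest increase of 10899 genes fitted. Smad3 (gene ID 17127) reached 1 FPKM in all 3 FSS libraries but in 1 static library, so it entered the fit through the group in which it was high. Without both libraries numbered 3 the difference was 2.03. In bulk RNA, fewer cells of a type and less RNA per cell cannot be told apart.

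**Figure D1:**
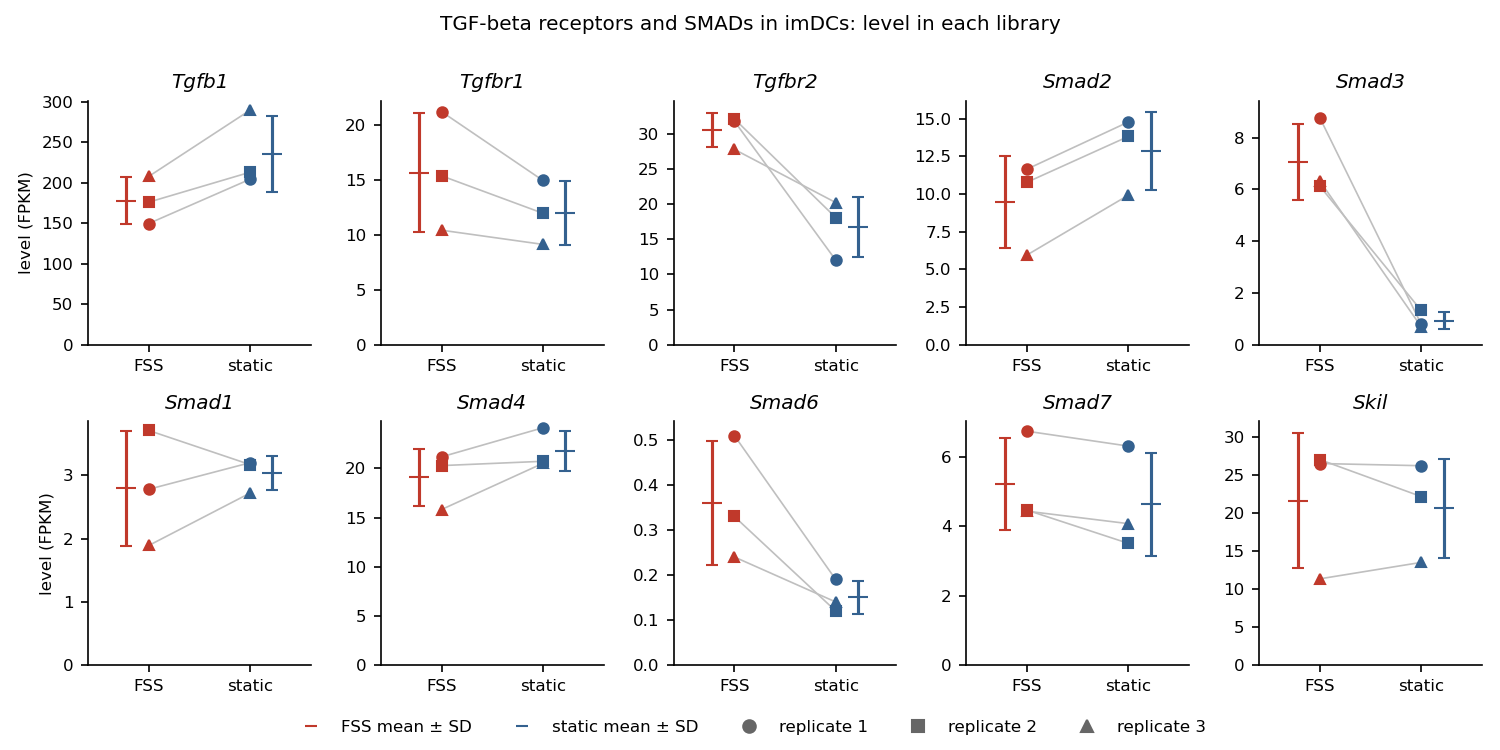
Level of each of the 10 genes in FPKM (y axis from 0, own scale per panel) in the FSS and static libraries, with grey lines joining libraries of the same replicate number and bars for mean ± SD (n = 3). Smad3, Tgfbr2 and Smad6 are the panels in which all FSS points lie above all static points.

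Smad2, the other SMAD that TGFBR1 phosphorylates, was lower. It stood at 11.7, 10.8 and 5.96 FPKM under FSS and at 14.8, 13.8 and 9.93 FPKM in static cells. The groups overlapped, yet each FSS library was below the static library of its number, at 0.788, 0.780 and 0.60 times its level in pairs 1 to 3. In both groups the library numbered 3 was the lowest. The means were 9.47 ± 3.07 FPKM under FSS and 12.85 ± 2.57 FPKM in static cells (SD, n = 3 each).

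With Smad3 higher and Smad2 lower, their balance differed between the groups. Smad3 made up 42.9%, 36.2% and 51.5% of the summed Smad2 and Smad3 FPKM under FSS, against 5.07%, 8.71% and 6.5% in static cells. The sum itself differed far less, at 16.5 ± 4.08 FPKM under FSS and 13.8 ± 2.75 FPKM in static cells (SD, n = 3 each). The share was highest in FSS replicate 3, where Smad2 was lowest. Against Smad4, the partner of both, Smad3 stood at 0.414, 0.302 and 0.40 times its FPKM under FSS and at 0.0327, 0.0637 and 0.0336 times in static cells. These ratios rest on the value that chose Smad3 and are given without a test.

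Of the receptors, Tgfbr2 showed the clearer difference. It stood at 31.8, 32.1 and 27.8 FPKM under FSS, against 12.0, 18.1 and 20.2 FPKM in static cells. The groups did not overlap, and the ratios in pairs 1 to 3 were 2.64, 1.78 and 1.37, the static level varying more than the FSS level. The difference was 0.86 ± 0.21 on the log2(FPKM + 1) scale (SE), the 217th largest increase. Tgfbr1 stood at 21.2, 15.3 and 10.4 FPKM under FSS and at 14.9, 11.9 and 9.11 FPKM in static cells. The groups overlapped, number 1 being the highest and number 3 the lowest library of each, while FSS was above static within each pair (ratios 1.42, 1.28 and 1.14).

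The type II receptor was higher relative to the type I receptor within every pair. The ratio of Tgfbr2 to Tgfbr1 FPKM was 1.5, 2.09 and 2.67 under FSS, against 0.806, 1.51 and 2.22 in static cells. The groups overlapped, and in both of them the ratio was lowest in number 1 and highest in number 3.

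**Figure D2:**
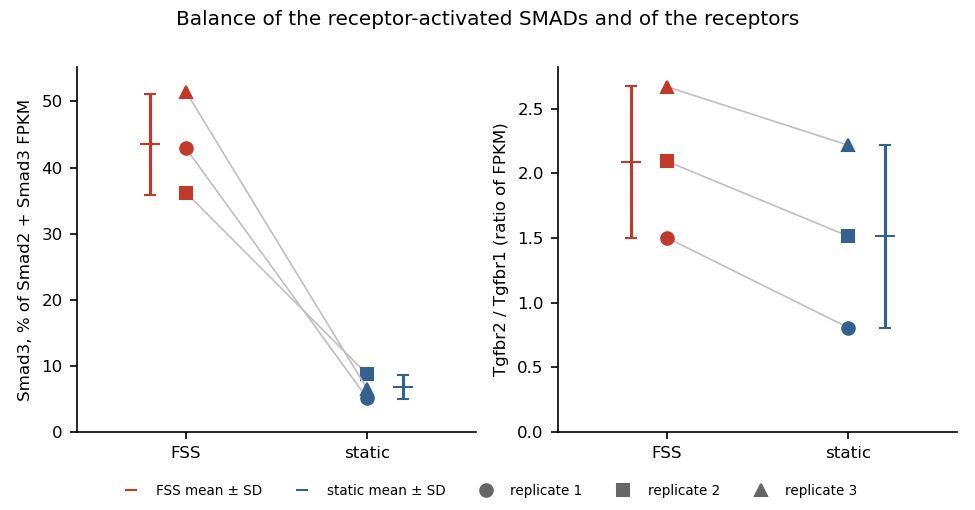
Left, Smad3 as a percentage of summed Smad2 and Smad3 FPKM per library; right, the ratio of Tgfbr2 to Tgfbr1 FPKM per library, with FSS left of static, grey lines joining libraries of one replicate number and bars for mean ± SD (n = 3). The Smad3 share is 36.2% or more in every FSS library and 8.71% or less in every static one, whereas the receptor ratios overlap and differ within pairs.

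The ligand went the other way. Tgfb1, by far the most abundant member, stood at 149.8, 176 and 208 FPKM under FSS and at 205, 213 and 289.9 FPKM in static cells. The highest FSS library lay between static replicates 1 and 2, and FSS was lower in all 3 pairs (ratios 0.732, 0.826 and 0.717). The library numbered 3 was the highest in each group, whereas 5 members were lowest there in both. The difference was -0.40 ± 0.21 on the log2(FPKM + 1) scale (SE), where the median gene stood at -0.12; after scaling by median ratios it was -0.24.

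The remaining signal carriers were close between groups. Smad4, the partner of all receptor-activated SMADs, stood at 21.2, 20.3 and 15.8 FPKM under FSS and at 24.1, 20.7 and 20.5 FPKM in static cells. Its groups overlapped, and its difference of -0.19 ± 0.18 on the log2(FPKM + 1) scale (SE) was -0.04 after median-ratio scaling. A processed pseudogene overlaps Smad4 on the opposite strand, and whether strand was used in the counting is not given. Smad1, the carrier of BMP signals, stood at 2.78, 3.71 and 1.89 FPKM under FSS and at 3.20, 3.17 and 2.72 FPKM in static cells. It was higher under FSS in pair 2 and lower in pairs 1 and 3, and its difference was 0.00 after the scaling.

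The inhibitors were low or close between groups. Smad7, which SMAD3 itself induces in many cells, stood at 6.75, 4.47 and 4.44 FPKM under FSS and at 6.32, 3.51 and 4.08 FPKM in static cells. The groups overlapped, and the ratios in pairs 1 to 3 were 1.07, 1.27 and 1.09. Smad6, an inhibitor mainly of BMP signalling, was the lowest member, at 0.51, 0.33 and 0.24 FPKM under FSS and at 0.19, 0.12 and 0.14 FPKM in static cells. The groups did not overlap (2.40-fold between means), but no library reached 1 FPKM, so Smad6 was outside the fit, and with depth unknown no counting error can be attached to values this low.

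Skil differed most with library number and hardly with FSS. It stood at 26.5, 27.0 and 11.3 FPKM under FSS and at 26.2, 22.1 and 13.5 FPKM in static cells. Both libraries numbered 3 were low, by 0.98 on the log2(FPKM + 1) scale below numbers 1 and 2 on average. The difference between groups was 0.02 ± 0.37 (SE), and in pair 3 FSS was the lower one. Tgfbr1, Smad1, Smad2 and Smad4 were also lowest in number 3 in both groups.

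**Figure D3:**
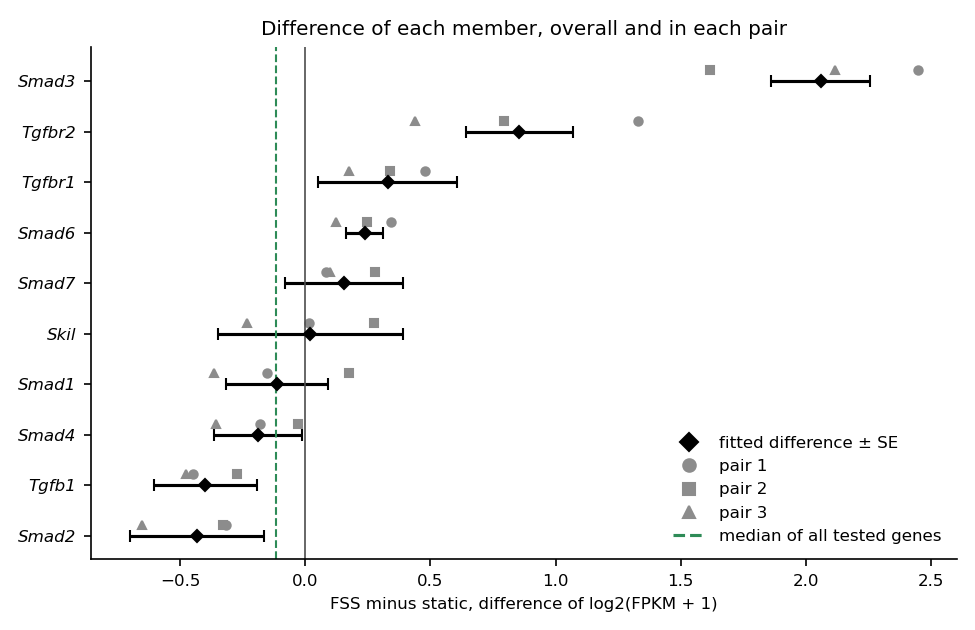
FSS minus static on the log2(FPKM + 1) scale (x axis) for the 10 genes, ordered by size, with black diamonds for the fitted difference ± SE, grey symbols for pairs 1 to 3 and a dashed line at the median of all fitted genes (-0.12). Smad3 lies at 2.06 and Tgfbr2 at 0.86, and the other members lie between -0.43 (Smad2) and 0.33 (Tgfbr1).

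Over the members, 5 were higher in all 3 pairs (Smad3, Tgfbr2, Tgfbr1, Smad6 and Smad7), 3 were lower in all 3 (Smad2, Tgfb1 and Smad4) and 2 were mixed. Among all genes fitted, 17.1% were higher and 47.3% lower in all 3 pairs. FSS lay above static without overlap in 3 members, against 5.10% of genes fitted, and below it in 0, against 20.4%. Smad6 is counted in these 3 and in the 5 above although it was outside the fit, whereas the shares cover fitted genes only. Of the 9 members in the fit, Smad3 was past a Benjamini-Hochberg adjusted p of 0.05 (limma on log2(FPKM + 1)), as were 1.72% of all genes. At an unadjusted limma p under 0.05, 2 were higher and 0 lower, where 1969 of 10899 genes passed in either direction. With median-ratio scaling alone, 1 higher (Smad3) and 0 lower were called, against 1.45% and 0.651% of all genes (2.10% in either direction). With the replicate number as a block, 3 were called higher (Smad3, Tgfbr2 and Tgfbr1) and 2 lower (Tgfb1 and Smad2), against 7.73% and 25.1% of all genes (32.9% in either direction). With the block and median-ratio scaling, 4 were called higher and 1 lower, Smad7 being added and Tgfb1 lost, against 19.2% and 16.8% (36.0% in either direction). Since the members were chosen on this contrast, nothing is read from these counts.

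The order of mean levels was as follows. Under FSS it ran from Tgfb1 over Tgfbr2, Skil, Smad4, Tgfbr1, Smad2, Smad3, Smad7 and Smad1 down to Smad6. Between Skil and Smad7 each gene's range overlapped that of the next, so those neighbours are not separated. In static cells the order was Tgfb1, Smad4, Skil, Tgfbr2, Smad2, Tgfbr1, Smad7, Smad1, Smad3 and Smad6, with overlapping neighbours from Smad4 to Tgfbr1. Smad3 thus lay next to last in static cells, below the range of Smad1. Under FSS its range overlapped those of Smad2 and Smad7.

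The 5 fitted genes nearest to Smad3, by the root mean square difference of mean-centred log2(FPKM + 1) over the 6 libraries, were Ciart (0.193), Hspa1l (0.211), Icosl (0.215), Chac1 (0.216) and Arrdc3 (0.222). Ciart, a repressor of the circadian clock, averaged 4.72 FPKM under FSS and 0.533 FPKM in static cells. Hspa1l belongs to the HSP70 chaperones, Icosl encodes the partner of ICOS on T cells, Chac1 degrades glutathione and Arrdc3 is an arrestin-like adaptor. Icosl averaged 28.6 FPKM under FSS and 6.53 FPKM in static cells. Hspa1l averaged 2.82 FPKM under FSS and 0.17 FPKM in static cells, Chac1 5.07 and 0.187 FPKM, and Arrdc3 5.17 and 0.79 FPKM. Ciart, Hspa1l and Chac1 were under 1 FPKM in every static library, so they entered the fit only through the group in which they were high. Arrdc3 reached 1 FPKM in all FSS libraries but in static replicate 1 alone of the static ones, so the same limit holds for it as for Smad3. On the log2(FPKM + 1) scale such low static values are drawn together, so genes of unlike fold can lie near each other. No other member was among them, and 184 fitted genes were nearer to Smad3 than Tgfbr2 (0.662). The likeness includes the contrast that chose Smad3 and describes only these libraries.

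The wider pathway was read from 82 further genes of TGF-beta, activin and BMP signalling, listed by role and tested with all genes. All were in the table, 25 were under the filter of 1 FPKM in at least 3 libraries, and 57 were fitted. Without the block, 1 fell and none rose (limma), where 0.862% and 0.853% of all genes did. At an unadjusted limma p under 0.05, 10 were lower and 4 higher, where 1969 of 10899 genes passed in either direction. The unadjusted counts by role below stand beside that same share. With the block, 17 fell and 7 rose and 33 did not pass. That is 29.8% and 12.3% of the 57, beside 25.1% and 7.73% of all genes. With the block and median-ratio scaling 11 fell and 12 rose, or 19.3% and 21.1%, beside 16.8% and 19.2% of all genes. The median difference was -0.09 on the log2(FPKM + 1) scale, and 0.06 scaled, against -0.12 and 0.02 over all genes fitted. The shares were near those of all genes, and the balance of rises and falls turned with the scaling.

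**Figure D4:**
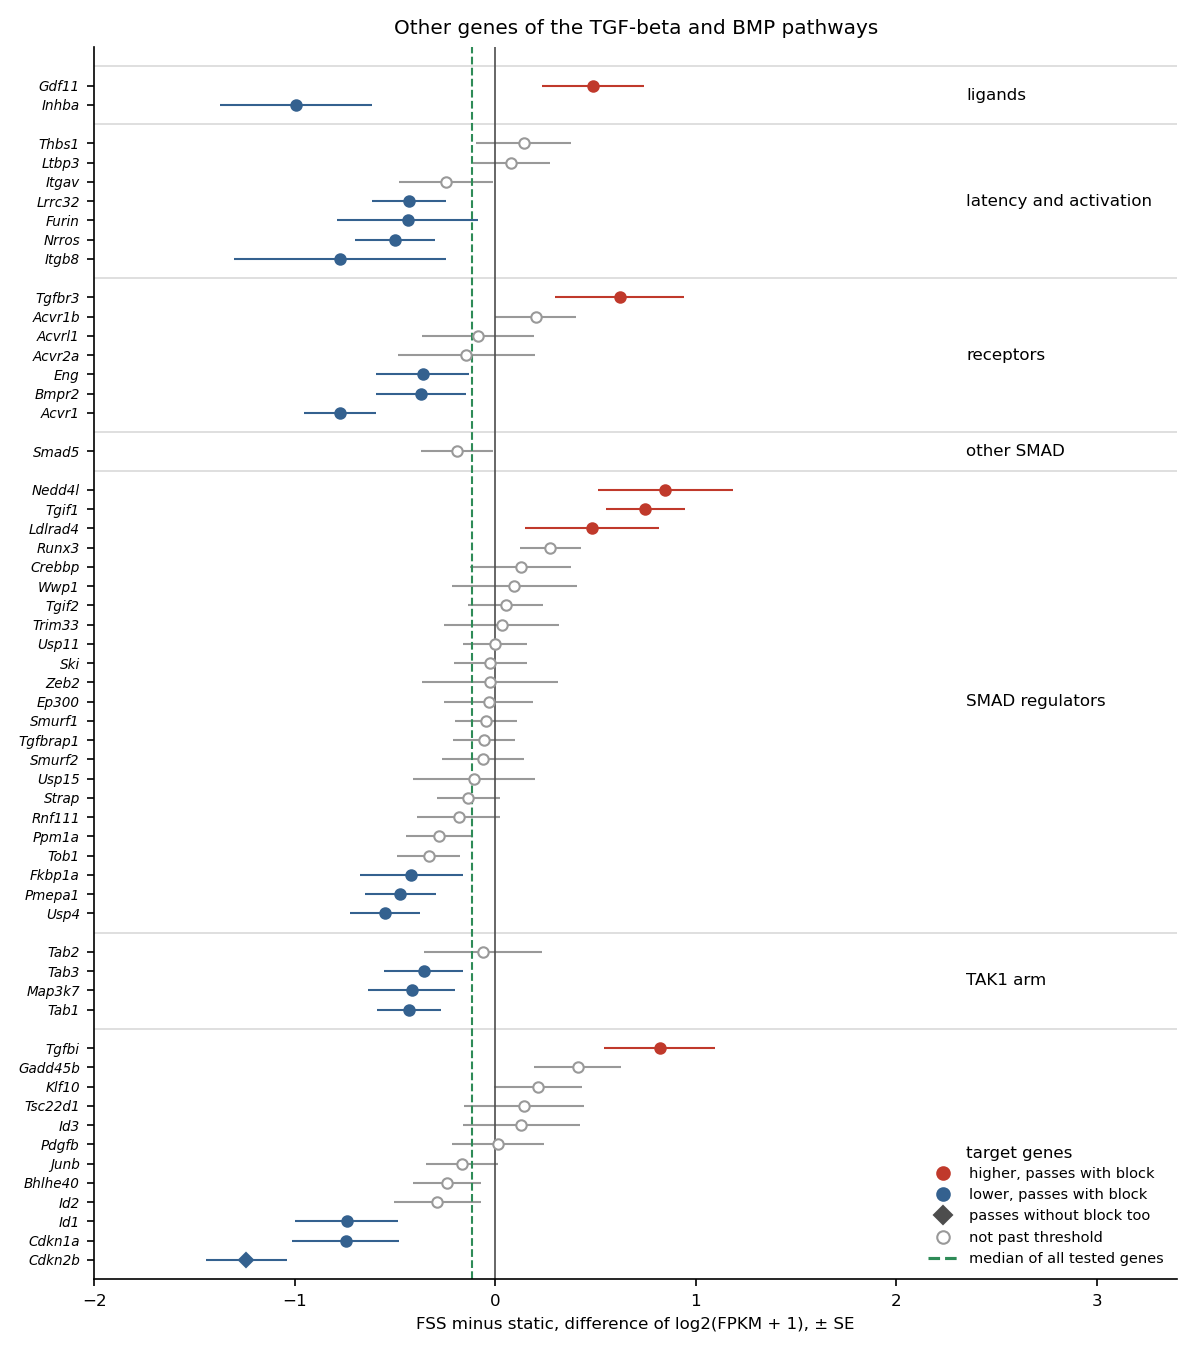
FSS minus static on the log2(FPKM + 1) scale, ± SE, for the fitted pathway genes reported here, by role, filled where limma passed with the replicate block (red higher, blue lower), with a diamond where it passed without the block as well; the dashed line is the median of all fitted genes. Cdkn2b, at -1.24, is the sole diamond.

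Ligands other than Tgfb1 were few. Of 9 genes, 2 were fitted; Tgfb2 and Tgfb3 were at most 0.63 and 0.27 FPKM. Inhba, the subunit of activin A, was at 200.4, 160 and 91.6 FPKM under FSS, against 436, 294 and 184 FPKM in static cells. It was lower in every pair while its groups overlapped, and passed as lower in the blocked fit (limma adjusted p = 0.000623) and not without the block (0.219). Gdf11, an activin-like ligand, averaged 1.38 ± 0.551 FPKM under FSS and 0.71 ± 0.49 FPKM in static cells (SD, n = 3 each). It rose in the blocked fit (limma adjusted p = 0.0106) and not without the block (0.372). With the block and scaling both genes passed in the same directions (limma adjusted p = 0.000444 for Inhba and 0.00329 for Gdf11).

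Of 7 fitted genes that store, cut or release latent TGF-beta, 4 fell with the block and none rose, beside 25.1% lower and 7.73% higher of all genes. With the block and scaling 2 fell and none rose, beside 16.8% and 19.2% of all genes (without the block none passed, 2 being lower at an unadjusted limma p under 0.05). Nrros, which tethers latent TGF-beta on myeloid cells, stood at 86.3 ± 18.9 FPKM under FSS and 120.4 ± 1.99 FPKM in static cells (SD, n = 3 each; limma adjusted p = 0.239 without and 0.0244 with the block). Lrrc32 (GARP), a tether of the same family, stood at 62.6 ± 12.1 FPKM under FSS and 83.8 ± 2.02 FPKM in static cells (limma adjusted p = 0.274 unblocked and 0.0299 blocked, but 0.119 with the block and scaling). Itgb8, the integrin subunit through which dendritic cells activate latent TGF-beta, was 2.15, 0.85 and 0.15 FPKM under FSS, against 5.39, 2.31 and 0.59 FPKM in static cells. It was highest in number 1 and lowest in number 3 of each group and fell in the blocked fit (limma adjusted p = 0.00444; unblocked 0.51). Furin, the protease that cuts the TGF-beta precursor, was the other fall and is named with its values known. It averaged 121 FPKM under FSS and 169.6 FPKM in static cells. Its limma adjusted p was 0.59 without the block, 0.0318 with it and 0.0912 with the block and scaling.

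Of 7 other receptors fitted, 1 rose and 3 fell with the block, beside 7.73% higher and 25.1% lower of all genes, and none passed without it (1 was lower at an unadjusted limma p under 0.05). With the block and scaling 2 rose and 1 fell, beside 19.2% and 16.8% of all genes, so the balance turned; Acvr1b, an activin type I receptor named with its values known, was gained there (limma adjusted p = 0.0103). Tgfbr3 (betaglycan), which presents TGF-beta to TGFBR2, was at 8.25, 6.36 and 3.72 FPKM under FSS, against 3.99, 4.86 and 2.03 FPKM in static cells. It was higher in every pair and rose in the blocked fit (limma adjusted p = 0.00926; unblocked 0.367). Acvr1, a type I BMP receptor, stood at 5.28 ± 0.80 FPKM under FSS and 9.75 ± 1.55 FPKM in static cells (SD, n = 3 each), without overlap (limma adjusted p = 0.00347 blocked and 0.0802 unblocked). Bmpr2, the BMP type II receptor, averaged 6.71 FPKM under FSS and 8.91 FPKM in static cells. Its limma adjusted p was 0.451 without the block, 0.027 with it and 0.068 with the block and scaling. Eng, a coreceptor also named with its values known, was the other fall, at a mean of 5.87 FPKM under FSS and 7.87 FPKM in static cells (limma adjusted p = 0.0482 with the block and 0.116 scaled).

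SMAD regulators mostly did not pass: of 23 fitted, 3 rose and 3 fell with the block, beside 7.73% higher and 25.1% lower of all genes, and without it none passed (2 higher and 2 lower at an unadjusted limma p under 0.05). With the block and scaling 4 rose and 2 fell, beside 19.2% and 16.8% of all genes; Runx3, a transcription factor that works with SMADs and is named with its values known, was gained (limma adjusted p = 0.00706) and Fkbp1a lost. Tgif1, a homeodomain corepressor of SMADs, stood at 61.9, 50.9 and 40.9 FPKM under FSS, against 31.6, 26.3 and 31.4 FPKM in static cells. All its FSS libraries were above the static ones (limma adjusted p = 0.00528 blocked and 0.107 unblocked). Nedd4l, a ubiquitin ligase of activated SMAD2 and SMAD3, and Ldlrad4, which hinders their phosphorylation, were the other rises, and Fkbp1a, which holds TGFBR1 inactive, the other fall; these 3 are named with their values known. Nedd4l averaged 8.11 FPKM under FSS and 3.86 FPKM in static cells, Ldlrad4 21.2 FPKM under FSS and 14.2 FPKM in static cells, and Fkbp1a 108 FPKM under FSS and 142 FPKM in static cells. Their limma adjusted p-values with the block were 0.00355, 0.0282 and 0.0127. With the block and scaling they were 0.0002, 0.00165 and 0.112. Usp4, which deubiquitinates TGFBR1, stood at 27.5 ± 3.76 FPKM under FSS and 40.55 ± 3.56 FPKM in static cells, and Pmepa1, a SMAD-induced feedback inhibitor, at 26.1 ± 3.04 FPKM under FSS and 36.8 ± 5.15 FPKM in static cells (SD, n = 3 each). Both fell with the block (limma adjusted p = 0.00475 for Usp4 and 0.0105 for Pmepa1; 0.152 and 0.209 in the fit lacking the block). Smad5 was the other SMAD fitted, at a mean of 2.31 FPKM under FSS and 2.75 FPKM in static cells (limma adjusted p = 0.66 unblocked and 0.187 blocked). Of the 4 genes of the TAK1 kinase arm, Map3k7 (TAK1), Tab1 and Tab3 fell with the block (limma adjusted p = 0.0356, 0.0342 and 0.0237 in that order), where 25.1% of all genes fell, and none passed without it (1 lower at an unadjusted limma p under 0.05). Map3k7 averaged 6.80 FPKM under FSS and 9.19 FPKM in static cells, Tab1 2.13 FPKM under FSS and 3.20 FPKM in static cells, and Tab3 2.76 FPKM under FSS and 3.82 FPKM in static cells. With the block and scaling, Map3k7 and Tab1 remained past the threshold (limma adjusted p = 0.0478 and 0.0413) and Tab3 did not (0.0655). In that fit 16.8% of all genes fell.

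Among 13 fitted genes that TGF-beta or BMP induces in other cells, 2 rose and 3 fell with the block, beside 7.73% and 25.1% of all genes, and 5 rose and 3 fell with the block and scaling, beside 19.2% and 16.8%. Cdkn2b, the cell cycle inhibitor p15, stood at 9.72, 8.51 and 10.95 FPKM under FSS, against 27.2, 18.6 and 28.2 FPKM in static cells. Its groups did not overlap. With a difference of -1.24 ± 0.20 on the log2(FPKM + 1) scale (SE), it was the 1 pathway gene that fell without the block (limma adjusted p = 0.038, and 0.000644 with it), although with 1 library left out it passed in 1 of 6 fits, that without FSS replicate 3, and its adjusted p ran from 0.0221 to 0.184. The call was also lost with median-ratio scaling (limma adjusted p = 0.0712) and without the filter. Tgfbi, a matrix protein, stood at 125, 117 and 150.2 FPKM under FSS and at 52.8, 66.7 and 112 FPKM in static cells, with all FSS libraries above the static ones, and rose in the blocked fit (limma adjusted p = 0.00555 blocked and 0.176 unblocked). Id1, a BMP target, and Cdkn1a, the cell cycle inhibitor p21, were the other falls, named with their values known. Id1 averaged 2.92 FPKM under FSS and 5.30 FPKM in static cells, and Cdkn1a 262 FPKM under FSS and 435 FPKM in static cells (limma adjusted p = 0.0152 and 0.00357 with the block, 0.184 and 0.193 without it). Klf10, Tsc22d1 and Gadd45b, also named with their values known, were the rises gained with the block and scaling. Their limma adjusted p-values there were 0.0121, 0.0379 and 0.00433, against 0.186, 0.34 and 0.0591 with the block alone.

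All 6 extracellular and membrane antagonists were under the filter. Bambi, a pseudoreceptor that blocks TGF-beta signalling, was at 0.59, 0.59 and 0.37 FPKM under FSS, against 0.12, 0.15 and 0.11 FPKM in static cells. Fst (follistatin), which traps activins, was at 0.41, 0.21 and 0.18 FPKM under FSS, against 0.97, 0.65 and 0.44 FPKM in static cells. Neither pair of groups overlapped, whereas the groups of Nog, Grem1, Fstl3 and Cd109 did. Among fitted genes, FSS lay above static without overlap in 5.10% and below it in 20.4%. Bambi and Fst, named with their values known, were outside the fit and are not covered by these shares.

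Markers of other cells were summed per library. The 6 macrophage genes summed to 501 to 618 FPKM under FSS and 424 to 517 FPKM in static cells. With the block 2 of them rose and 1 fell, beside 7.73% higher and 25.1% lower of all genes, and none passed without it. Mertk, a receptor for uptake of dying cells, was at 57.3, 49.8 and 21.97 FPKM under FSS, against 20.3, 21.4 and 12.3 FPKM in static cells (limma adjusted p = 0.164, and 0.00166 in the blocked fit). The 8 neutrophil genes summed to 257 to 433 FPKM under FSS and 290 to 521 FPKM in static cells, with 1 fall under the block, and the 4 platelet genes to 12.8 to 19.2 FPKM under FSS and 11.5 to 15.1 FPKM in static cells. The 4 stromal genes summed to at most 0.27 FPKM in any library, with Dcn listed at 0 in all. T-cell, B-cell and natural killer cell lists summed to at most 1.62, 3.03 and 0.15 FPKM, and mast cell, endothelial and erythroid lists to at most 4.48, 1.56 and 0.78 FPKM, with 1 endothelial gene rising under the block. The same shares of all genes, 7.73% higher and 25.1% lower, stand beside the neutrophil and endothelial counts with the block. None of the markers passed without the block (limma). The part of macrophage content in the differences of the receptors and SMADs was not tested.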

How the data were processed

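Total RNA of 6 imDC libraries was sequenced from DNA nanoballs, per the labels' protocols. HISAT and Bowtie2 are named in the submitters' processing notes. The quantifier, genome build, annotation and strand setting are not stated. The authors deposited 1 expression value per gene and library, taken here as FPKM, already normalized to length and library; the unit is read from the values, since value times transcript length summed to 0.552 to 0.609 of the total that FPKM implies with median lengths and to 1.14 to 1.28 of it with the longest. Steps of whole reads were searched for in low values and did not stand out clearly from randomly jittered values, which does not exclude them. No depth was derived from them, so depth is unknown and counting intervals cannot be had. In 4828 genes all values were blank. Spreadsheet dates replaced 26 symbols, which were restored by gene ID.

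The 10899 genes that reached 1 FPKM in 3 or more libraries were fitted as log2(FPKM + 1) with limma 3.58.1 (R 4.3.3, variance trend), FSS minus static, two-sided, Benjamini-Hochberg adjusted over all genes at 0.05. Both groups share the numbers 1 to 3; same-number deviations correlated at 0.79, 0.66 and 0.87, which pairs the libraries by number from the data and not from the labels. A second fit has that number as a block. The fit was tested on simulated data. Members and lists were chosen with earlier results of these data known. Named pathway genes were, per role, up to 3 with the smallest adjusted p without the block among those past 0.05 in either fit, or the 1 smallest where none passed. A gene that the rule names is counted in its list but not reported here. Alternatives were a pseudocount of 0.1, no filter, the block, median-ratio scaling (each library divided by the median of its ratios to the gene-wise geometric mean), both, equal totals and leaving libraries out. Smad6 was under the filter and its difference comes from the fit without filter.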

Additional observations from a re-analysis of the deposited data

How the results depend on the processing

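Over 14 alternatives the Smad3 difference stayed between 1.91 and 2.82 on the log2 scale. It was 2.82 with a pseudocount of 0.1 and 1.91 to 2.20 with 1 library left out. Tgfbr2 (0.65 to 1.06), Tgfbr1, Smad6, Smad2, Tgfb1 and Smad4 kept their sign throughout. Smad1 changed sign in 5 alternatives, Skil in 3 and Smad7 in 1 (without FSS replicate 1). Smad6 was 0.85 with the smaller pseudocount against 0.24.

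Counts of calls depended on the settings. Over all genes 93 were higher and 94 lower. With the replicate block there were 842 and 2739, with block plus median-ratio scaling 2092 and 1829, with the scaling alone 158 higher, with equal totals 45 lower and without a filter 14 and 7. With 1 library left out, 3 to 254 were higher and 0 to 161 lower: 254 and 161 when FSS replicate 3 was omitted, 27 and 7 for static replicate 3, 14 and 4 for static replicate 2, and 3 higher with at most 1 lower for each of the others. Without both libraries numbered 3, an alternative chosen after seeing the data, there were 371 and 356, and with the block as well 1526 and 2608.

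Of the pathway list 0 were higher and 1 lower. With the block these were 7 and 17, with block and scaling 12 and 11, and 0 lower with scaling alone or without a filter. With 1 library left out 0 to 2 were higher (2 without FSS replicate 3) and 0 to 1 lower. Without both libraries numbered 3 there were 5 and 2, and with the block 13 and 13. The cause was not tested. Unknown depth limits all values under 1 FPKM.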
